A study of Mus musculus with 2 samples.

Results

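The EGR transcription factors Egr1, Egr2 and Egr3, their co-repressors Nab1 and Nab2, and the immediate early genes Ier2, Ier3, Zfp36 and Btg2 were described in mouse keratinocytes labelled Chuk-deleted and wild type. The 9 genes were found as the non-control probes whose gene name in both scanner files equals one of these symbols. They had 15 of the 41174 gene probes, spread over 24 spots on each array. The genes were chosen by function and by their log2 ratios on these same arrays, so their ratios are given as a description and carry no test.

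Keratinocytes are the cells that form most of the epidermis. Total RNA was compared on 2 two-colour Agilent arrays, which the labels number as replicates of a single comparison. On both, the Cy3 channel held RNA of wild-type keratinocytes and the Cy5 channel RNA of the CHUK-LoxP mutant, in which Chuk, the gene of the kinase IKKα, is described as deleted through loxP sites. The labels name no Cre driver, strain, age, number of animals or culture conditions, no treatment, and no dye swap, so the dye and the genotype cannot be told apart for a single probe, and the spread between the arrays may be technical.

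Immediate early genes are transcribed within minutes of a growth factor, wound or stress signal, without new protein synthesis, and their mRNAs are mostly short-lived. ERK signalling reaches many of them through serum response factor (SRF) and its Ets partners, which bind the serum response element, or CArG box. EGR factors are zinc finger proteins that bind GC-rich sites. The NAB proteins dock on EGR factors and repress their activity, which closes a feedback loop, since EGR factors can switch on Nab2. In skin these genes respond to wounding, to dissociation of the tissue and to growth factors.

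The promoter sequences are shown for the 5 genes that carry a searched regulatory motif next to their start site. They are the 250 bases before the RefSeq start in GRCm38.p6, written 5′ to 3′ in the direction of the gene. Capitals mark a CArG box (in Egr2 and Zfp36), the EGR site GCGGGGGCG (in Zfp36 and Nab1) or GCGTGGGCG (in Nab1), the cyclic AMP response element TGACGTCA (in Btg2), the Sp1 site GGGGCGGGG (in Nab1) and an NF-kB consensus site (in Ier3 and Nab1).
Egr2, chr10:67537619-67537868, plus strand: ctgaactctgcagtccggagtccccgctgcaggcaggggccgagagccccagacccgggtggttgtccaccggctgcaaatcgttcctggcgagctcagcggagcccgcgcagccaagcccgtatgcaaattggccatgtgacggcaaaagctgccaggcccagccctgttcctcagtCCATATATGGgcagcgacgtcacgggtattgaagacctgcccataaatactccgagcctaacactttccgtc
Zfp36, chr7:28379229-28379478, minus strand: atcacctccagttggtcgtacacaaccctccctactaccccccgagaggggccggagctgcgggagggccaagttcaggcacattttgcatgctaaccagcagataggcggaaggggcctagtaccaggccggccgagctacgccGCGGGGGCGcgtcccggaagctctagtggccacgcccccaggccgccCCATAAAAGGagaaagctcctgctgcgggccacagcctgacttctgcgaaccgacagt
Ier3, chr17:35821463-35821712, plus strand: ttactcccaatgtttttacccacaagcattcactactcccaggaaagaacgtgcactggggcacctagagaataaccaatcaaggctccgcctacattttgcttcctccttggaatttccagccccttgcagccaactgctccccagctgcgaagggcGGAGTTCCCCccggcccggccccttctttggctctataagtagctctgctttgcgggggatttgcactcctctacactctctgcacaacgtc
Btg2, chr1:134079156-134079405, minus strand: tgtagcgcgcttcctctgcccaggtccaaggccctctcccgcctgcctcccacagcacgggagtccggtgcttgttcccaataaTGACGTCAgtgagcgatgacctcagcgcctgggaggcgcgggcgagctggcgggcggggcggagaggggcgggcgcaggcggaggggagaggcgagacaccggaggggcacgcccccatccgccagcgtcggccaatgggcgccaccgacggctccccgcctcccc
Nab1, chr1:52500449-52500698, minus strand: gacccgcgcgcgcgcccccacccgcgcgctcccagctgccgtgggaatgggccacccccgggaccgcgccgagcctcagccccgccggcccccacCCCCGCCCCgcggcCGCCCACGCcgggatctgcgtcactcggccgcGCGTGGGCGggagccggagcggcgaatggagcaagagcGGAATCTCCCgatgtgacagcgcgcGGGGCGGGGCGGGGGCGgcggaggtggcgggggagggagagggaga

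The table of RefSeq promoters held 6 of the 9 genes: Egr2, Nab1, Nab2, Ier3, Zfp36 and Btg2. Each window spans 250 bases before and 50 after a start, and both strands were searched. Egr2 had 5 windows, and 3 of them cover the same CArG box, CCATATATGG, which begins at position -72 from the start in the sequence shown. Another Egr2 window holds a different one, CCTTTTTTGG, and the box of Zfp36 is CCATAAAAGG, beginning at position -58. A CArG box was thus found in 2 of the 6 genes, against 1.63% of the 32851 promoter windows of all genes. Egr2 had several windows in which a match could fall, so its share is not on the footing of a single window. The EGR site GCGGGGGCG was found in 2 of 6 genes (2.91% of all windows). The related GCGTGGGCG was found in 1 (0.612%), Nab1, at 2 places. The cyclic AMP element TGACGTCA lay in 1 of 6 genes (1.79% of all windows), and its core TGACG, which it contains, in 3 (20.8%). The Sp1 site GGGGCGGGG was found in 2 genes (11.4%), Egr2 and Nab1, and the NF-kB consensus in 3 (8.46%), Egr2, Nab1 and Ier3. In Egr2 these matches lay only in windows other than the one shown, so its several windows weigh on these counts as well. The Ets sites CCGGAAGT (3.89% of all windows) and ACCGGAAG (2.3%), the AP-1 site TGAGTCA with its reverse complement TGACTCA (5.2%) and the TATA box letters TATAAA (13.6%) were in none of the 6. In Nab1 the Sp1 matches at positions -46 and -41 overlap each other and the EGR site at -38, and the one at -155 overlaps neither. A match is a run of letters and was not tested for binding.

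Each array carried 43379 gene spots, of which 53.2% to 64.5% were well above background in a channel. Values are log2 ratios of Cy5 over Cy3 after background correction and loess normalisation, which centres the ratios along the range of brightness. They are given for each array and as the mean ± SD (n = 2). Normalised intensities are the same spots split back into channels, in arbitrary units that cannot be compared between probes. Chuk itself does not bear out the labels: its 2 probes lay at 0.74 ± 0.02 and 0.85 ± 0.11, higher in the channel labelled Chuk-deleted, and where they lie relative to the deleted part is not given in the sources used here. Directions below therefore rest on the channel labels. Of 8 keratinocyte markers, 6 rose and 2 fell, with summed normalised intensities of 680708 and 699064 in the wild-type channel and 1012180 and 1028370 in the other. Of 8 fibroblast markers 6 rose and 1 fell (summed 53484 and 45147 against 91296 and 87516), and all 6 tested melanocyte markers fell (48219 and 49516 against 20085 and 17833). Of 6 leukocyte markers 3 were bright enough to test, with Ptprc, Itgam and Cd207 not among them: Lyz2 fell, Cd3e rose and Cd68 did not pass the threshold (0.13 ± 0.06). Their summed intensity was 3819 and 3706 against 2834 and 2592, and Lyz2 is the only one of the 3 that was lower. Of 4 endothelial markers only Kdr was bright enough, and it rose (1011 and 1009 against 1161 and 1177). The part of these other cell types in the values below was not tested.

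Egr2 showed the lowest ratio of the 9 genes, Egr3 was lower too, and Egr1 was higher, so the 3 EGR factors did not share a direction. Ier3 and both probes of Zfp36 were lower, the 3 probes of Btg2 were higher, and Nab1, Nab2 and the bright probe of Ier2 lay near 0. Of the 14 probes bright enough to test, 5 were past the limma threshold as higher and 5 as lower, by limma with Benjamini-Hochberg adjustment over all 23519 tested probes. The same threshold was passed by 61.4% of all tested probes (33.5% higher and 27.9% lower), so these counts lie near the background, and nothing is read from them. With each gene taken by its brightest tested probe, 2 of the 9 genes were past it as higher and 4 as lower, against 61.3% of all tested genes in either direction. The tested probes of 2 genes, Egr2 and Egr3, were at least 2-fold lower on both arrays. So were 2.38% of all tested probes and 3.21% of all tested genes. Of the 14 probes 0 were 2-fold higher on both arrays, against 1.46% of probes and 1.5% of genes. The genes were chosen with these ratios known, so nothing is read from the 2-fold counts either. The Egr3 probe cleared background in Cy5 on 1 array only, and it drops out where both channels must clear it. The dim Ier2 probe A_52_P554555, counted as higher, drops out too. It cleared background in Cy5 only, the channel in which it is higher, while the bright Ier2 probe did not pass the threshold. Of the 12 probes that remain, 4 were past the threshold as higher and 4 as lower.

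**Figure D1:**
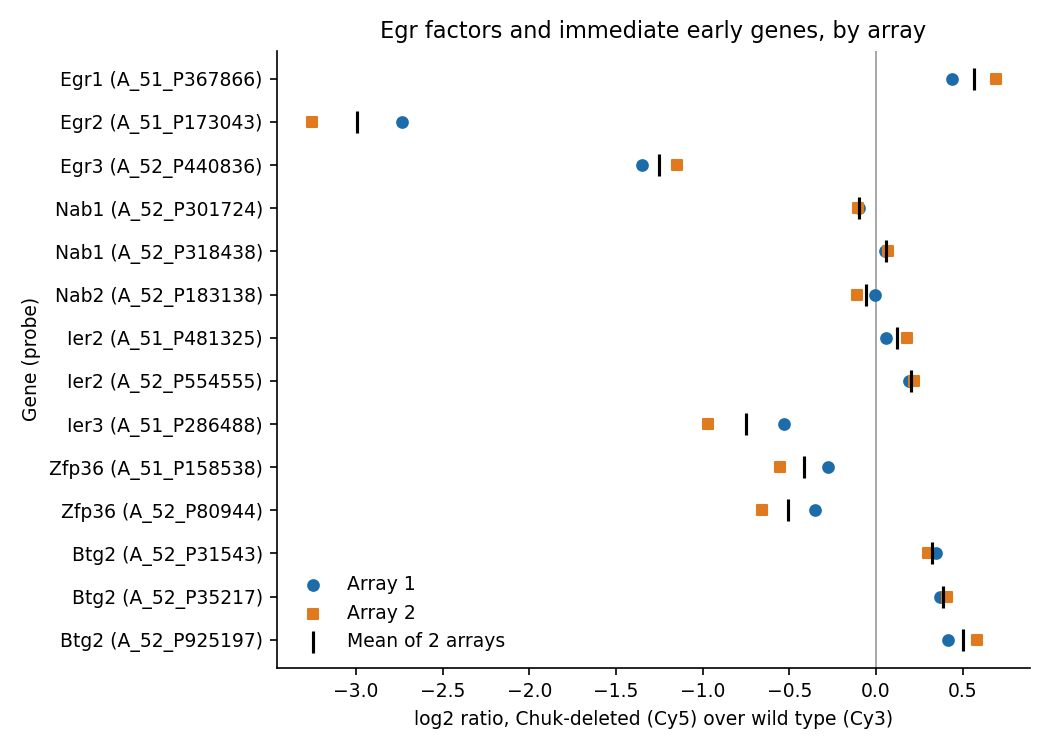
Log2 ratio of Chuk-deleted (Cy5) over wild type (Cy3) for the 14 tested probes, with a circle for array 1, a square for array 2 and a bar for the mean. Egr2 lies near -3 on both arrays, Egr3 beyond -1, Ier3 and Zfp36 below 0, and Egr1 and Btg2 above 0.

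Egr2, also known as Krox20, is the EGR factor best known for peripheral myelination and hindbrain patterning, and it is also expressed in the hair follicle. Its probe A_51_P173043 is printed in 10 spots, so each array measures it repeatedly. The normalised intensity in the wild-type channel was 2973 on array 1 and 3120 on array 2, and in the channel labelled Chuk-deleted it was 446.1 and 326.5. Within each array the channel labelled Chuk-deleted was the dimmer. The log2 ratios were -2.74 and -3.26, a mean of -3.00 ± 0.37, or 7.98-fold lower. Over the spots of array 1 the ratio ran from -2.81 to -2.65 with an SD of 0.06, and over those of array 2 from -3.32 to -3.17 with an SD of 0.06. The ranges of the spots on the 2 arrays did not overlap, so the gap between the arrays was larger than the spread of spots within either. That spread is like that of the 245 probes printed 10 times, whose median SD was 0.06 on each array. These spots share their RNA and their label, so they measure the array and not the culture.

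Before any correction the mean spot intensity of Egr2 was 2304 in Cy3 against 906 in Cy5 on array 1, and 1614 against 436.6 on array 2, while the median gene spot was brighter in Cy5 on both arrays (218 against 109.9, and 171.5 against 95.2). Of the 15 probes, 2 had a raw Cy5 signal below raw Cy3 on both arrays, those of Egr2 and the tested probe of Egr3, as did 1.54% of all tested probes. The ratio of the scanner software, which subtracts background without an offset, was -2.91 and -3.60 for Egr2. The direction was the same under all 11 alternative settings tried, but several of them could not turn it. The filters and the trended prior leave the ratio as it is, and leaving out an array gives the ratio of the other. The spike-in level only lowers it further. With median centring alone, which raises most ratios, Egr2 lay at -2.42. Only 0.306% of the 13739 tested genes had a mean ratio below that of Egr2.

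Egr3, which acts with Egr2 in T cell anergy and by itself in muscle spindle development, was measured by 2 probes. Probe A_52_P440836 had normalised intensities of 249.3 and 185 in the wild-type channel against 97.8 and 83.3 in the channel labelled Chuk-deleted. Its log2 ratios were -1.35 and -1.15 (mean -1.25 ± 0.14, 2.38-fold lower). The signal is dim: it was well above background in Cy3 on both arrays but in Cy5 on 1 of the 2, and its size therefore depends on how background is treated. The scanner software gave -2.63 and -3.46, and a smaller background offset of 16 gave a mean of -1.69, all lower. The other probe, A_51_P437198, was not well above background in either channel on either array, was not tested, and gives no level to set beside the first.

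Egr1 is the founding EGR factor, induced by serum and by wounding. Its probe A_51_P367866 had normalised intensities of 2820 and 4511 in the wild-type channel against 3826 and 7276 in the channel labelled Chuk-deleted. Within each array the channel labelled Chuk-deleted was the brighter, although the wild-type value on array 2 exceeded the Chuk-deleted value on array 1. The log2 ratios were 0.44 and 0.69 (mean 0.56 ± 0.18, 1.48-fold). Of all tested genes, 92.3% had a lower mean ratio. Probes for spike-in controls, RNAs meant to be added to both samples in known amounts, give another level. It is the mean of their log2 ratios after loess. Whether their amounts balance between the 2 samples was not checked, so it is a zero level only if they do. Against it Egr1 lay at -0.20. The direction of Egr1 thus holds relative to the other genes on the array and not to this spike-in level.

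**Figure D2:**
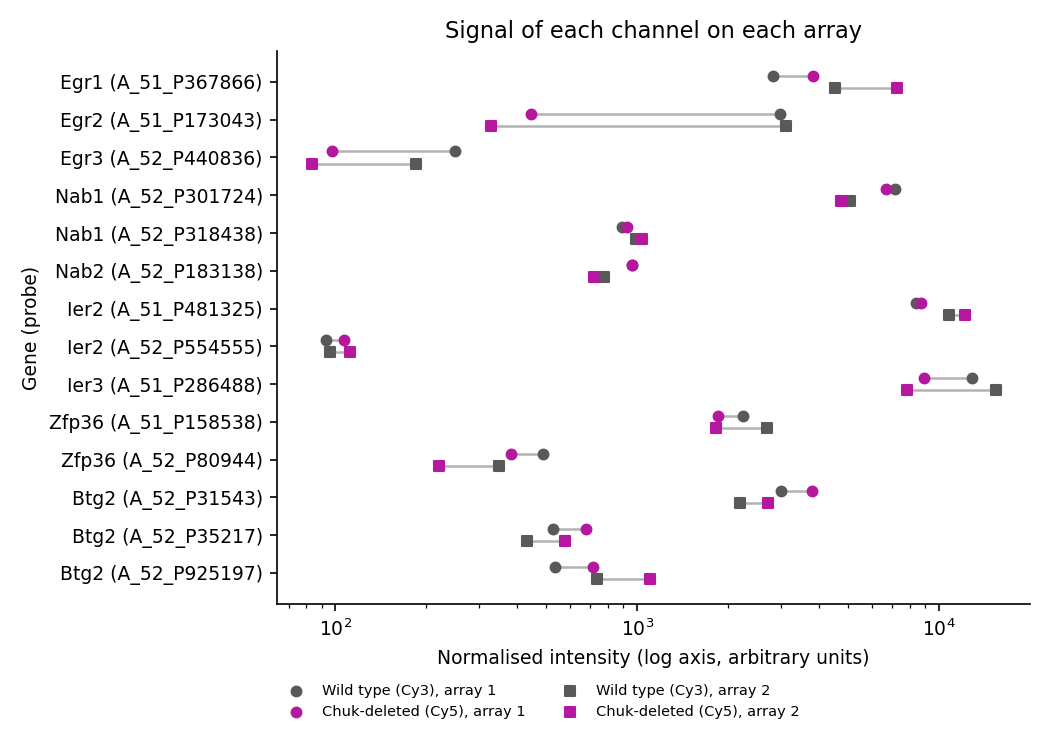
Normalised intensity (log axis, arbitrary units) of the 14 tested probes in the wild-type channel (grey) and the channel labelled Chuk-deleted (magenta), with circles for array 1 and squares for array 2, joined within an array. Egr2 shows the longest gap, from 2973 to 446.1 on array 1 and from 3120 to 326.5 on array 2, and the 2 channels of Nab1 and Nab2 nearly coincide.

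The NAB co-repressors were nearly level between the channels after loess. Nab1 had 2 probes: A_52_P301724 lay at -0.10 on each array (mean -0.10 ± 0.0038) and A_52_P318438 at 0.05 and 0.07 (mean 0.06 ± 0.01). They point in opposite directions by amounts that did not pass the threshold of the fit. Their normalised intensities were 7157 and 5067 in the wild-type channel against 6691 and 4720 for the first probe, and 890.9 and 987.6 against 923.1 and 1034 for the second. Nab2 lay at -0.0055 and -0.11 (mean -0.06 ± 0.07), from 962.1 and 777.9 in the wild-type channel against 958.4 and 721.7. Its SD is larger than its mean, so its sign is not resolved by these arrays. With median centring alone the Nab1 probes lay at 0.59 and 0.63 and Nab2 at 0.50, where the median of all genes was 0.55. On the spike-in level these 3 probes lay at -0.86, -0.70 and -0.82, where that median was -0.74.

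Ier2 and Ier3, small proteins induced by serum, differed from each other. Ier2, a nuclear protein, had a bright probe, A_51_P481325, with normalised intensities of 8368 and 10805 in the wild-type channel against 8721 and 12217, and log2 ratios of 0.06 and 0.18 (mean 0.12 ± 0.08). Its dim probe A_52_P554555 was not well above background in Cy3 on either array. For such a probe a bound can be set with the weakest measurable signal, here 86.2 and 80.0 in Cy3. The normalised Cy3 intensities of the probe, 93.2 and 96.2, lay above that. Its value, 1.15-fold higher in the channel labelled Chuk-deleted, is thus the plain ratio and not a bound. This ratio is open to dye bias. The scanner software put the dim probe at 1.07 and median centring with the median of all probes brought back to that under loess put it at -0.34, so it adds little to the bright one.

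Ier3, also called IEX-1, is an NF-kB target that modulates survival and ERK signalling. Its probe had normalised intensities of 12858 and 15399 in the wild-type channel against 8915 and 7865 in the channel labelled Chuk-deleted. The log2 ratios were -0.53 and -0.97, a mean of -0.75 ± 0.31, or 1.68-fold lower. The change on array 2 was larger than on array 1 by 0.44, more than for any of the other genes except Egr2 (0.52). With median centring alone Ier3 lay at -0.02, a setting that put the median of all genes at 0.55.

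Zfp36 encodes tristetraprolin, which binds AU-rich mRNAs of cytokines and early response genes and brings the deadenylation machinery to them. Probe A_51_P158538 had normalised intensities of 2234 and 2686 in the wild-type channel against 1845 and 1826, and log2 ratios of -0.28 and -0.56 (mean -0.42 ± 0.20). Probe A_52_P80944 had 485.7 and 347.3 against 380.6 and 220, and ratios of -0.35 and -0.66 (mean -0.51 ± 0.22). Within each array both probes were dimmer in the channel labelled Chuk-deleted, although on the second the wild-type value of array 2 lay below the Chuk-deleted value of array 1. The probes differed by less than the spread between the arrays. With median centring alone the first turned to 0.21 and the second stayed below 0 at -0.09.

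Btg2, an antiproliferative p53 target that couples mRNAs to the CCR4-NOT deadenylase, was measured by 3 probes, and all were higher on both arrays. Probe A_52_P31543 gave log2 ratios of 0.35 and 0.30 (mean 0.32 ± 0.03), from normalised intensities of 2988 and 2193 in the wild-type channel against 3800 and 2703. Probe A_52_P35217 gave 0.37 and 0.41 (mean 0.39 ± 0.03), from 524.3 and 432.6 against 676.1 and 574.7. Probe A_52_P925197 gave 0.42 and 0.58 (mean 0.50 ± 0.12), from 534 and 736 against 712.9 and 1101. As folds the 3 probes lay between 1.25 and 1.41. On the spike-in level they lay at -0.44, -0.38 and -0.26.

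All 14 tested probes had the same sign on both arrays, as did 89.2% of all tested probes. In 12 of the 14 the ratio of array 2 lay farther from 0 than that of array 1, and so it did in 61.9% of all tested probes. The 2 exceptions were Egr3 and the Btg2 probe A_52_P31543. Relative to the median of all genes, 12 of the 14 probes lay on the same side under loess, the software's ratio and median centring. The spike-in level shifts every gene alike, by 0.68 on array 1 and 0.84 on array 2, so it leaves values relative to that median as they are and turns any smaller positive ratio by construction. The exceptions were the Nab1 probe A_52_P301724 and the dim Ier2 probe.

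**Figure D3:**
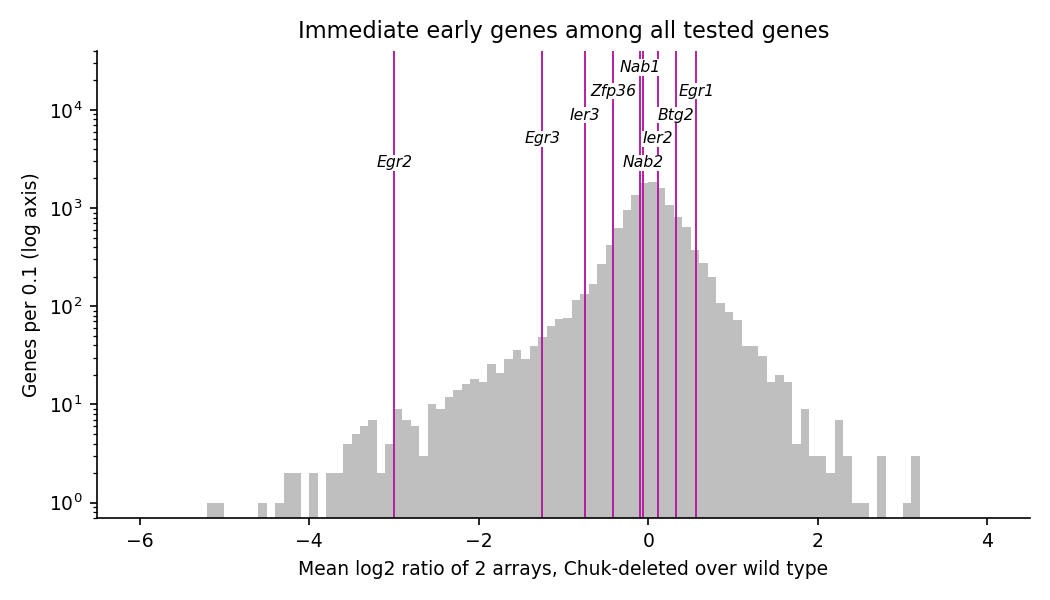
Mean log2 ratio of all 13739 tested genes (grey histogram, log count axis) with a line at the brightest tested probe of each of the 9 genes. Egr2 lies in the far lower tail, where 0.306% of genes are lower, and Nab1, Nab2 and Ier2 lie near the centre.

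The other immediate early genes are a list of 42 from general knowledge, chosen with earlier results of these data known, so its counts are a description. The list had 41 tested genes, of which 9 rose and 19 fell past the limma threshold, with a median log2 ratio of -0.10. Over all tested genes 33% rose and 28.3% fell, and the median was 0.02. The split depends on the centring: with median centring alone 25 rose and 4 fell, on the spike-in level 0 rose and 38 fell, and with the median of all probes brought back to that under loess 16 rose and 17 fell. Ptgs2, the inducible cyclooxygenase, fell most (-1.65 and -1.52, mean -1.58 ± 0.09), followed by Arc, an effector of neuronal activity (-1.29 and -1.39), and the immediate early gene Ier5 (-1.23 and -1.29). These were the 3 genes of the list that lay 2-fold lower on both arrays. Ccn2, the matricellular growth factor CTGF, rose by 0.98 and 1.02 (mean 0.998 ± 0.028), but on the spike-in level it lay at 0.23 and no longer passed. Genes named after their values were seen are Fos, at -0.03 and -0.04, and Nr4a1, at -0.05 and 0.02, archetypal immediate early genes that did not pass the threshold, and Atf3 (-0.71 and -1.06), which did. In 10 of the listed genes several probes were tested, and none had probes called in opposite directions. In several of them, however, 1 probe passed the threshold and another did not, so the counts depend on the probe taken. With the mean of all tested probes of a gene 10 rose and 21 fell.

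**Figure D4:**
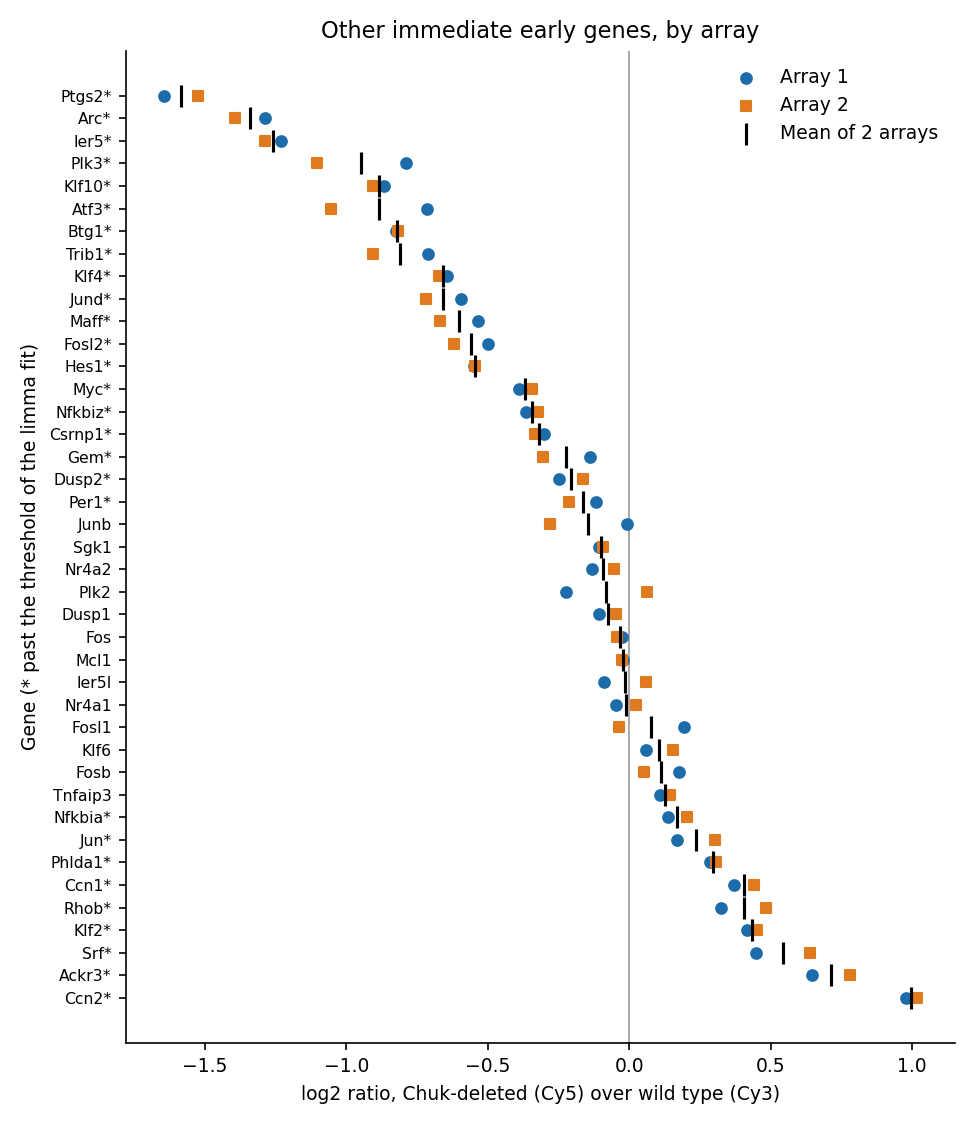
Log2 ratio of Chuk-deleted over wild type for the 41 tested genes of the list of other immediate early genes, with a circle for array 1, a square for array 2 and a bar for the mean, and an asterisk on genes past the limma threshold. The genes run from Ptgs2 at -1.58 to Ccn2 at 0.998, with Fos at -0.03.

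The counts of the lists that follow stand beside 33% of all tested genes that rose and 28.3% that fell. With median centring alone 10270 of the 13739 tested genes rose and 988 fell, and on the spike-in level 272 rose and 12503 fell, so a list's counts under these settings follow a shift of all genes. Of 12 paralogs of the 9 genes, 8 were tested, of which 4 fell and 0 rose (median -0.33). Besides Ier5 these were the antiproliferative genes Btg1 (-0.82 on each array), Tob1 (-0.54 and -0.77) and Btg3 (-0.53 and -0.63), all relatives of Btg2, which lay on the other side of 0. With median centring alone 3 of the 8 rose and 1 fell: Btg3 turned to 0.12 and Btg1 (-0.05) and Tob1 (-0.10) no longer passed.

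SRF and the ERK pathway feed the promoters of immediate early genes. Of 22 tested genes of that list, 6 rose and 7 fell (median -0.05), against 16 and 0 with median centring alone. Srf itself rose (0.45 and 0.64, mean 0.54 ± 0.13), as did its coactivator Mrtfa (0.59 and 0.70) and the ERK-activated kinase Rps6ka1 (0.57 and 0.81), and Mapk3, the gene of ERK1, fell (-0.39 and -0.63). On the spike-in level Srf, Mrtfa and Rps6ka1 lay at -0.22, -0.12 and -0.07, and with median centring alone Mapk3 lay at 0.15.

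Genes known from other systems as EGR1 targets rose in 11 and fell in 4 of 18 tested (median 0.23), against 2 and 13 on the spike-in level (median -0.53). The growth factor Pdgfa rose (1.27 and 1.51, 2.62-fold) and was 2-fold higher on both arrays. The fibronectin gene Fn1 (0.82 and 1.09) and the growth factor Igf2 (0.78 and 0.95) rose too, and neither passed on the spike-in level. Fn1, like the collagens, is also a gene of fibroblasts. Of 8 fibroblast markers 6 were higher and 1 was lower on the same arrays, and of 8 keratinocyte markers 6 were higher and 2 lower. The part of cell types in the Fn1 value was not tested. Of 7 tested genes known as EGR2 or EGR3 targets, mostly from myelinating and T cells, 2 rose and 3 fell (median -0.09). The ubiquitin ligase Rnf128, known as GRAIL, rose (1.50 and 1.64, 2.97-fold). The myelin genes Pmp22 (-0.75 and -0.67) and Mbp (-0.47 and -0.68) and the cell cycle inhibitor Cdkn1a (-0.25 and -0.38) fell, and with median centring alone these 3 lay at 0.01, 0.11 and 0.40. Among NuRD chromatin remodellers, through which NAB proteins repress, 3 of 12 rose and 5 fell (median 0.05), against 11 and 0 with median centring alone. The ATPase genes Chd3 (0.81 and 1.06) and Chd4 (0.57 and 0.54) were higher and the deacetylase gene Hdac2 (-0.31 and -0.28) and the methyl-CpG binding gene Mbd2 (-0.21 and -0.32) lower. Chd4 lay at -0.21 on the spike-in level, and Hdac2 and Mbd2 at 0.01 and 0.32 with median centring alone.

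Transcripts known as targets of the decay factor Zfp36 fell in 8 and rose in 2 of 14 tested genes (median -0.29). With median centring alone 4 fell and 9 rose, and with the median of all probes brought back to that under loess 5 fell and 5 rose. The cytokine gene Csf2 fell 9.65-fold (-2.67 and -3.87). Ptgs2 is on this list too. The kinase gene Pim1 fell (-0.89 and -1.21), and so did the chemokine gene Ccl3 (-0.84 and -0.92), the latter a dim probe in Cy5 that cleared background on 1 array only. Of 24 deadenylation and decapping factors, on which Zfp36 and Btg2 act, 9 rose and 8 fell (median 0.00087), against 22 and 0 with median centring alone. The largest were small: the CCR4-NOT partner Tnks1bp1 (0.50 and 0.60), Cnot3 (0.46 and 0.44), Cnot4 (0.32 and 0.42) and the decapping enhancer Edc3 (-0.22 and -0.45). On the spike-in level the first 3 lay at -0.21, -0.31 and -0.39, and with median centring alone Edc3 lay at 0.00014.

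Heat shock genes, which like immediate early genes respond to handling of cells, fell in 5 and rose in 0 of 10 tested (median -0.30), against 2 and 5 with median centring alone. The inducible chaperone genes Hspa1a (-1.07 and -1.88) and Hspa1b (-1.19 and -1.60) were 2-fold lower on both arrays, and Hsp90aa1 (-0.69 and -0.79) and Hsph1 (-0.66 and -0.65) fell as well, the last pair turning to 0.16 and 0.12 with median centring alone. Besides Bag3, which fell too, the other 5 genes, Hspa8, Hspb1, Hspd1, Dnajb1 and Hspe1, did not pass the threshold. The part of handling in the values of the immediate early genes was not tested.

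**Figure D5:**
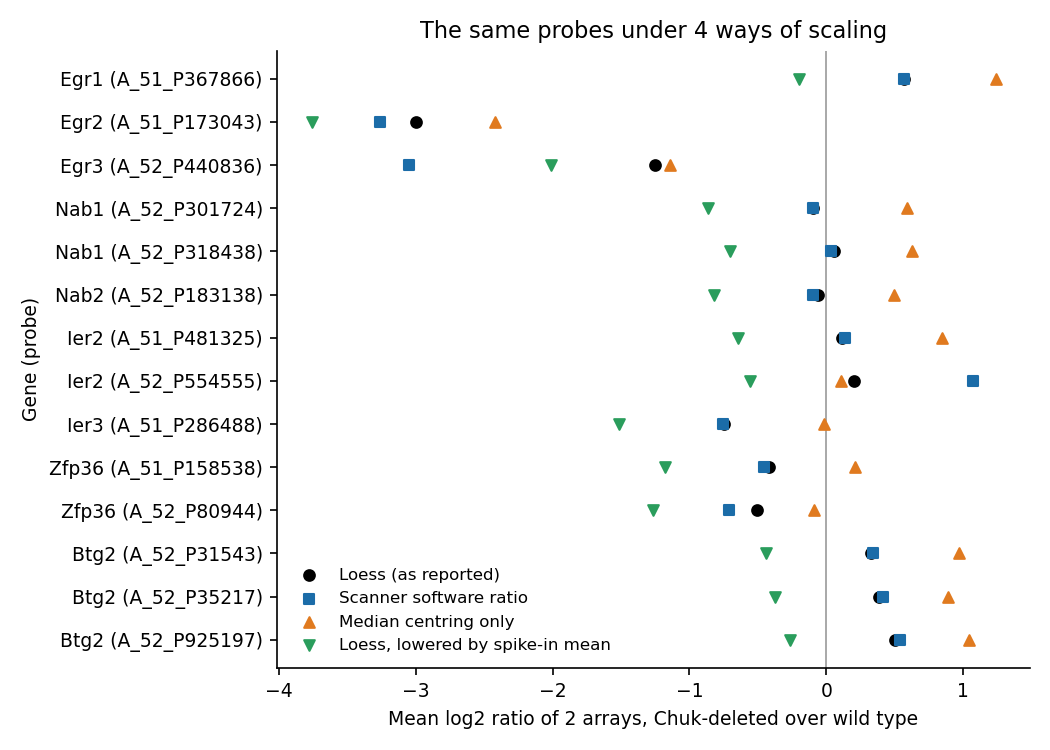
Mean log2 ratio over the 2 arrays of the 14 tested probes under 4 ways of scaling: loess as reported (circle), the scanner software's ratio (square), median centring alone (upward triangle) and loess lowered by the spike-in mean (downward triangle). Egr2 and Egr3 lie below 0 under all 4, and Egr1 and Btg2 are above 0 under 3 of them.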

How the data were processed

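Per the file headers, the arrays were read with Agilent's Feature Extraction software. The authors deposited spot intensities with local backgrounds, flags of 0 or 1, among others for spots well above background, and a Cy5 over Cy3 log10 ratio of signals that were background subtracted, detrended and dye normalised. The deposited value table equals that ratio to within 0.005. In R 4.3.3, limma 3.58.1 corrected background (normexp, offset 50) and normalised log2 ratios by loess with control spots at weight 0. Outlier spots (51 and 18) were left out and spots of a probe averaged. The 23519 probes that cleared the background flag on both arrays in Cy3, in Cy5 or in both were tested with lmFit and eBayes against 0, two-sided, with Benjamini-Hochberg adjustment at 0.05. Each probe had 1 residual and 5.16 prior degrees of freedom. Names were updated through RefSeq (GRCm38.p6): 16129 tested probes by accession, 4721 by symbol or synonym, 628 kept the file's name and 2041 had none. A gene is its brightest tested probe. Bounds set the bright channel against a floor, the weakest measurable signal or the dim signal itself where that was higher, after loess and Aquantile. The fit was tested on simulated data with 200 of 23519 probes changed, each at least 2-fold, and noise drawn separately for each array. It recovered every changed probe, but 9.09% of its calls were false, which exceeded the 0.05 threshold. The simulated noise had the same SD for every probe, estimated without the most variable probes. Smaller changes, unequal spread and arrays that share their RNA were not simulated. Nor was a share of changed probes near the 61.4% called here, so the recovered and false shares may not hold for these arrays. The 9 genes, the lists and the tests were chosen with earlier results of these data known. From each list the text names up to 4 called genes of largest change. One gene that this rule picks is not reported here. Listed genes that are among the 9 were left out of the lists. The number of arrays limits the precision. Both arrays lay on a single slide, so no slide block was fitted, and protein sequences of the EGR and NAB families were not analysed here.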

Additional observations from a re-analysis of the deposited data

How the results depend on the processing

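Without background correction all 14 tested probes of the 9 genes moved by less than the SD between the arrays, and with the offset of 16 and with the software's ratio 10 of 14 did. The filters and the trended prior leave a ratio as it is, and leaving out 1 of 2 arrays moves a mean by less than that SD by construction, so these say nothing about stability. With both channels required to be well above background 12 probes remained. Centring decides the smaller ratios, as the reference level itself is not fixed by these arrays. With median centring alone all genes split into 10270 higher and 988 lower, with 1302 and 228 at least 2-fold on both arrays, and 25 and 4 among other immediate early genes. Then the Zfp36 probe A_51_P158538 turned to 0.21, and Hdac2 (0.0114), Mbd2 (0.32), Edc3 (0.00014), Pmp22 (0.0116), Mbp (0.11), Cdkn1a (0.40), Hsp90aa1 (0.16), Hsph1 (0.12), Btg3 (0.12) and Mapk3 (0.15) changed sign. So did 2 ratios that had not passed the threshold, those of the Nab1 probe A_52_P301724 (0.59) and Nab2 (0.50). Lowered by the spike-in mean, 272 genes were higher and 12503 lower, 29 and 2122 at least 2-fold, and 0 and 38 among other immediate early genes. Then Egr1 (-0.20), the Ier2 probe A_52_P554555 (-0.56), the Btg2 probes (-0.44, -0.38 and -0.26), Chd4 (-0.21), Tnks1bp1 (-0.21), Cnot3 (-0.31), Cnot4 (-0.39), Rps6ka1 (-0.071), Mrtfa (-0.12) and Srf (-0.22) changed sign. The bright Ier2 probe A_51_P481325 (-0.65) and the Nab1 probe A_52_P318438 (-0.70), which had not passed the threshold, also turned. Median centring with the median of all probes brought back to that under loess, an alternative chosen after seeing the data, gave 318 genes 2-fold higher, 16 other immediate early genes higher, and the Ier2 probe A_52_P554555 at -0.34. The software's ratio gave 437 genes 2-fold higher and 684 lower. Leaving out an array, where 2-fold on the other alone suffices and no test is possible, gave 225 to 338 genes 2-fold higher and 463 to 581 lower. Where a ratio moved, the cause was not tested beyond the construction of the setting. Averaging all probes of a gene and shortening the promoter window to 250 bases changed none of these counts by over 1.5 times. Each array holds both genotypes, so the log ratio is itself the paired comparison within an array, and the fit tests it against 0. No further block could be fitted. Probes near background, those of Egr3 and the dim one of Ier2, carry sizes that depend on the correction.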
